A study of Mus musculus with 4 samples.

Results

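Reduced representation bisulfite sequencing (RRBS) was used here to set iPSCs beside NESTIN-GFP precursors, the cells collected at an early stage of their differentiation towards dopaminergic neurons. RRBS cuts genomic DNA with the restriction enzyme MspI at CCGG and reads the fragment ends after bisulfite conversion, which leaves methylated cytosines as C and turns unmethylated ones into T. The iPSCs carry the Pitx3 Gfp/+ reporter, in which GFP replaces 1 allele of the dopaminergic transcription factor gene Pitx3. The precursors come from another line, Nestin Gfp/+, in which regulatory sequence of Nes, the gene of a neural progenitor filament, drives GFP. Both lines were made, per the study's methods, from fibroblasts of E14.5 embryos with retroviruses carrying Oct4, Klf4, Sox2 and cMyc. The precursors were grown on MS5 stromal cells with Noggin and SB431541, inhibitors of BMP and TGF-β signalling. They are called neurons in the sample label but precursors in the methods. After their collection, the methods describe a gradual change to medium with Sonic hedgehog. Whether the precursors received it is not stated there. There was 1 library per group, so that the step of differentiation, the reporter line, the clone and the library cannot be told apart, and no difference has a replicate check. The study's methods describe the sequenced precursors as NESTIN-GFP-positive. Whether stromal cells were among the collected precursors was not tested.

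A position entered the comparison when it lay on 1 of the 19 autosomes and had at least 5 calls in both libraries. These were 684201 of the 1154942 autosomal positions listed in both, and of 3868125 listed in any of the 4 libraries of the series. Its methylation level is the percentage of methylated calls, and each strand of a CpG is a position of its own. Positions were split by their neighbours. Inside runs, at least 10 such positions follow each other with gaps under 100 bp, and all the rest are outside runs. The 15772 runs held 390227 positions, or 57.0% (Wilson 95% interval 56.9% to 57.2%), and 293974 positions lay outside. Runs mark CpG-rich stretches that RRBS covered and are not a list of CpG islands.

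In mammals, most CpGs of the genome carry methylation, while CpG islands, which lie at many promoters, mostly stay free of it. DNMT3A and DNMT3B add new methylation, DNMT1 copies it at replication with the help of UHRF1, and TET enzymes oxidise it. Promoters of genes that act only in germ cells are a well known exception among CpG-rich promoters, since they become methylated as embryonic cells leave pluripotency and stay so in somatic tissues. Neural differentiation of pluripotent cells also silences pluripotency genes and activates genes of neural progenitors, such as Nes, Pax6 and the Notch pathway.

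Promoter sequences of RefSeq (GRCm38.p6), which run from 250 bases before a gene's start to 50 after it, were placed on the positions of the files by the spacing of their CpGs. Of 21695 windows tried, 8920 were placed on their own chromosome and 82 on a wrong one, the next in number, which gauges false placement. The 250 bases before the start are shown for 5 genes, because they are the promoters on which the contrasts described later rest. Ddx4 and Hormad1 act in germ cells and gained methylation, Nes gained it at the gene that names the precursors, Pax6 has a window that gained and another that stayed low, and Nr4a2 stayed low. Capitals mark the CpG bases that had at least 5 calls in both libraries on either strand. The sequences run 5′ to 3′ on the strand of the gene, and the coordinates are those of GRCm38.p6, not of the files.
Ddx4, chr13:112652311-112652560, minus strand: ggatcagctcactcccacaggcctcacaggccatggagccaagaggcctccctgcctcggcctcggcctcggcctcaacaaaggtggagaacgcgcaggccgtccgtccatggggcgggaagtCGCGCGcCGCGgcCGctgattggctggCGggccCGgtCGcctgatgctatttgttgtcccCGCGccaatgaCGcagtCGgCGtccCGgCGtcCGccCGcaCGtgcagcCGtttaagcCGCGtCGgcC
Hormad1, chr3:95559427-95559676, plus strand: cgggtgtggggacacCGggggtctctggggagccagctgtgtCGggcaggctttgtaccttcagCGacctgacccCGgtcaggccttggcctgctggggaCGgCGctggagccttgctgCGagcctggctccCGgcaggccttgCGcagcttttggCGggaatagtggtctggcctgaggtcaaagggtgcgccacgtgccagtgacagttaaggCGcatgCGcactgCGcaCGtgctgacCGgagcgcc
Nes, chr3:87970843-87971092, plus strand: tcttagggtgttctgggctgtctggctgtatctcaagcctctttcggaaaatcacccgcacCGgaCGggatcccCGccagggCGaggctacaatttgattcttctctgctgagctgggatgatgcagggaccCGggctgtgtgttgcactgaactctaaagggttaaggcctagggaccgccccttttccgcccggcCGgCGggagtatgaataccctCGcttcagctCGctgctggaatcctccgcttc
Pax6, the window that gained, chr2:105682213-105682462, plus strand: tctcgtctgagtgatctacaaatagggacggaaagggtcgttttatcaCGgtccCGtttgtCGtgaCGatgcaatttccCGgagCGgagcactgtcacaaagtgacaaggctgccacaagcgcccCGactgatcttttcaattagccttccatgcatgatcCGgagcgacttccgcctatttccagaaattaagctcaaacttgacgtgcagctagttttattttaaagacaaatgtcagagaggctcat
Pax6, the window that stayed low, chr2:105668646-105668895, plus strand: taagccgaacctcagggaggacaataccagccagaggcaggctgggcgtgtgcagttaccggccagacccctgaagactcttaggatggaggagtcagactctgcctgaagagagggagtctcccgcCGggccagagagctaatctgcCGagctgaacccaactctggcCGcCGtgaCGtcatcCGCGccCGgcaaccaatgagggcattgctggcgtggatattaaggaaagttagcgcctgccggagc
Nr4a2, chr2:57124004-57124253, minus strand: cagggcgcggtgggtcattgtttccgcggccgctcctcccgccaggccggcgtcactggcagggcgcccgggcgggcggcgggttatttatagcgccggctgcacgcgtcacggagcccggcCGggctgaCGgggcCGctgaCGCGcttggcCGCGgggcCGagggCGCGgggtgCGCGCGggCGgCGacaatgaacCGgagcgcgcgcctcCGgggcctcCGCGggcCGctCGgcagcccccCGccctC

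Among these, the MspI site CCGG occurs 2 times in Ddx4, 4 times in Hormad1 and Nes, 2 times in the Pax6 window that gained, 4 times in the one that stayed low and 7 times in Nr4a2. The E-box CACGTG, bound by factors that include MAX, occurs 1 time in Ddx4 and 2 times in Hormad1 and in none of the other 4 sequences. It was searched on both strands, which read alike for this palindrome, in the 250 bases before each start. It was present in 6.02% of all 32851 RefSeq promoters, in 9.38% of the 5779 windows compared here and in 5 of the 10 germline windows. Among the 1156 windows that gained methylation, 10.4% had it, close to the share of all windows compared. The motif TCCCGC, searched with its reverse complement GCGGGA and known from E2F sites, was present in 16.9% of all promoters, in 39.9% of the windows compared and in 3 of the 10 germline windows. Of the windows that gained, 36.7% had it. A match of letters is a description and not a site.

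The libraries differed in depth and in make-up. The iPSC library held 67882422 autosomal calls and the precursor library 31076502, of which 14.98% and 56.0% were methylated. Positions compared here took 80.4% of the iPSC calls but 55.0% of the precursor calls, so that these totals describe different parts of the genome. Inside runs, the median depth of a position was 95 calls in iPSCs (quartiles 61 and 127) and 16 in precursors (quartiles 9 and 27). Outside, it was 37 and 20 calls. Wilson intervals, given for shares and pooled levels, cover counting error only, since reads of a PCR-amplified library are not independent molecules.

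Methylation was higher in precursors than in iPSCs in both kinds of position, and the change had a different form in each. Inside runs, mean methylation was 5.98% in iPSCs and 15.9% in precursors, a change of 9.89 percentage points. The median change there was 0. The median level was 0.758% in iPSCs and 0 in precursors, and the upper quartile moved from 6.02% to 20%. Outside runs, mean methylation was 47.7% in iPSCs and 76.6% in precursors, a change of 28.9 points, and the median went from 50% to 94.5%. Over the 19 autosomes, the mean change ran from 6.69 points (chromosome 16) to 13.4 (chromosome 7) inside runs and from 26.4 (chromosome 1) to 31.1 (chromosome 10) outside, so that all autosomes showed the same direction and order. With pooled calls, which weight deep positions more, the changes were 14.9 points inside and 44.8 outside.

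Outside runs, the precursor library lost most of the intermediate levels seen in iPSCs. Positions from 20% to under 80% made up 41.2% in iPSCs (95% interval 41.02% to 41.4%) and 16.8% in precursors (16.6% to 16.9%). Those at 80% or more made up 27.2% in iPSCs and 70.0% in precursors. Of the 121118 positions that were intermediate in iPSCs, 86.4% were at 80% or more in precursors and 2.54% were under 20%. Inside runs, positions from 20% to under 80% instead became more frequent, from 7.90% (95% interval 7.81% to 7.98%) to 18.9% (18.7% to 18.97%), and those at 80% or more went from 0.780% to 6.55%. Of the 356363 positions under 20% in iPSCs inside runs, 78.1% were still under 20% in precursors, 18.6% were intermediate and 3.27% had passed 80%.

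**Figure D1:**
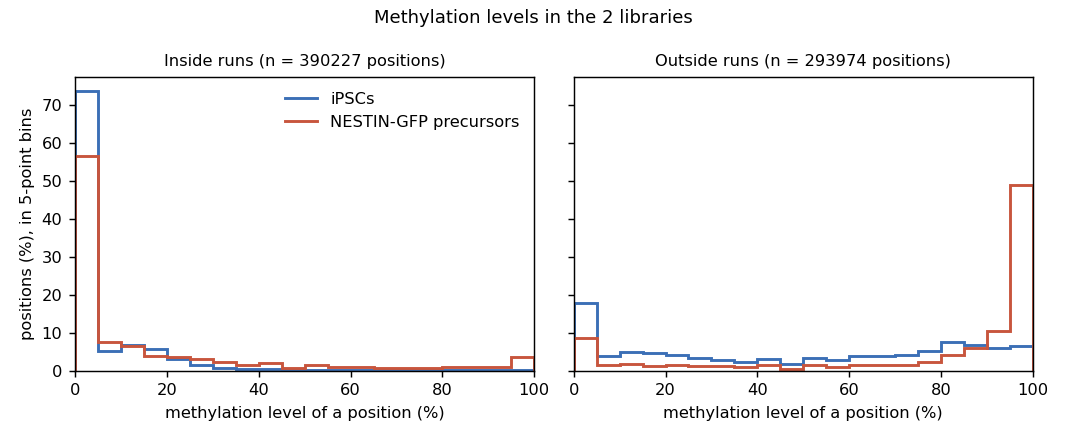
Distribution of methylation levels in iPSCs (blue) and NESTIN-GFP precursors (red), as the percentage of positions (y axis) in bins of 5 percentage points of the level (x axis), inside runs (left, 390227 positions) and outside (right, 293974). Outside runs the broad spread of iPSCs gives way to a peak at the top in precursors, with 70.0% of positions at 80% or more, whereas inside runs most positions stay in the lowest bin of both libraries.

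The calls of each position were compared by Fisher's exact test (two-sided), with Benjamini-Hochberg adjustment over all 684201 positions, and called when the adjusted p was under 0.05 and the change at least 20 points. The test compares the 2 libraries, not the conditions, and its p-values are too small because calls of a read are linked and PCR copies reads. In all, 184609 positions gained (27.0% of those tested) and 3144 lost (0.460%). Outside runs 117988 positions gained (40.1%) and 690 lost (0.235%), and inside runs 66621 gained (17.1%) and 2454 lost (0.629%). The strands of a CpG give 2 readings of the same change. For 50628 CpGs inside runs the strands differed by 0.000 points on average with an SD of 18.5, and for 11485 outside by -0.028 with an SD of 24.05. Among CpGs outside whose first strand was called gained, the other strand was also up by at least 20 points in 80.8%, compared with 30.2% where it was not called. Inside, these shares were 60.96% and 9%.

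The change moved with the starting level in iPSCs, where a position above 80% cannot rise by 20 points. Outside runs, positions of every starting class from over 20% upwards converged on a nearly full level in precursors. Positions starting at over 20% to 40% had a median of 93.5% in precursors (quartiles 75% and 100%), those at over 40% to 60% one of 98.9%, and those at over 60% to 80% one of 100%. Rises of at least 20 points were seen at 86.0%, 95.04% and 74.6% of these positions. The 30210 positions at 0 in iPSCs were spread widely, with a median of 20% and quartiles of 0 and 66.7%, and 50.2% of them rose by at least 20 points. Their mean change was 33.8 points, and that of positions at over 0 to 5% was 25.6 points. Positions starting at over 80% to 90% went from a mean of 85.4% to 95.9%, and those at over 90% but under 100% from 93.4% to 96.4%. With a minimum of 20 calls in both libraries, runs were rebuilt from the positions left, so that depth and the make-up of the classes changed together. Outside the rebuilt runs, the class at 0 held 25660 positions with a mean change of 8.08 points. That at over 0 to 5% had a mean change of 15.7 points.

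Inside runs, low positions mostly stayed low. The 177414 positions at 0 in iPSCs, 45.5% of the positions inside, had a median of 0 and an upper quartile of 10.0% in precursors, and 16.2% of them rose by at least 20 points. Their mean change was 9.34 points. Requiring 20 calls in both libraries, with runs rebuilt, gave a class of 47847 positions with a mean change of 4.43 points. The 111059 positions at over 0 to 5% likewise had a median of 0, an upper quartile of 15.7% and rises of that size at 18.6%. Positions starting at over 40% to 60% were few, 3818, and had a median of 95% in precursors. From that class upwards, the medians inside runs lay within 4 points of those outside. Positions starting at over 20% to 40% split in both directions, with 33.2% rising and 36.9% falling by at least 20 points. Their quartiles in precursors were 0 and 70.0%, and their mean change was 7.63 points. The same class outside runs had 86.0% rising and 4.41% falling. With a minimum of 20 calls and runs rebuilt, the class inside runs held 5147 positions and its mean change was 18.9 points.

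**Figure D2:**
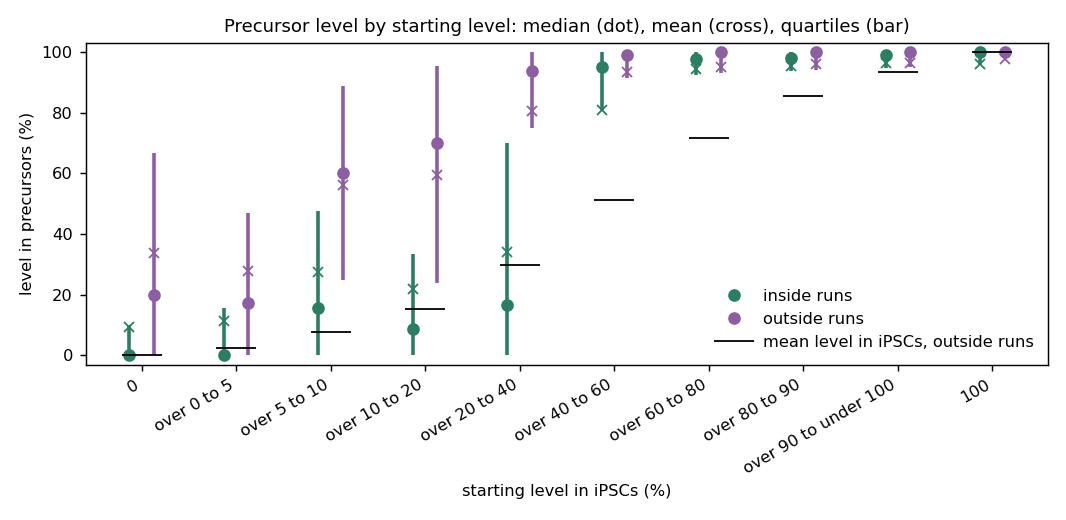
Methylation level in NESTIN-GFP precursors (y axis, %) by starting level in iPSCs (x axis, %), inside (green) and outside (purple) runs. Dots are medians, crosses means, bars the quartiles over positions, and black dashes the mean level in iPSCs outside runs. Outside runs the medians exceed 90% from a starting level of over 20% to 40% upwards, and inside runs only from over 40% to 60% upwards.

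Positions called lost in the placed promoter windows were nearly all of a recognisable kind. In the placed promoter windows the MspI sites are known, so that each position can be given its base in a read, counted from 1 at the cytosine of the cut site. At the 16601 shared positions at base 1, the mean level was 17.6% in iPSCs and 20.4% in precursors. At the 62163 positions at bases 2 to 40, it was 1.59% in iPSCs and 12.3% in precursors. Base 1 thus stood apart from the bases that follow in both libraries, by more in iPSCs. Of the positions inside runs at over 10% to 40% in iPSCs and with a known base, 10526 of 11400, or 92.3%, were base 1. Of 505 positions called lost in these windows, inside or outside runs, 499 were base 1. The rest of the 3144 lost positions have no known base. The cause of the level at base 1 was not tested.

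**Figure D3:**
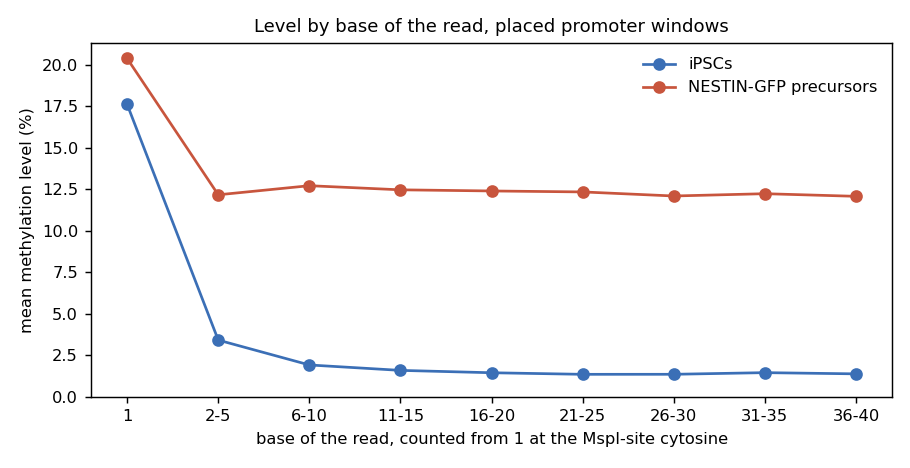
Mean methylation level (y axis, %) by base of the read, counted from 1 at the MspI-site cytosine (x axis), at positions of placed promoter windows with at least 5 calls in both libraries, for iPSCs (blue) and NESTIN-GFP precursors (red). In iPSCs the level drops from 17.6% at base 1 to between 1.35% and 3.42% in the later bins, and in precursors from 20.4% to between 12.1% and 12.7%.

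Outside these windows the site of the cut is not known, and a proxy chosen after seeing the data was used. A position was taken as read-interior when a neighbour with nearly the same iPSC depth, within 5% or 1 call, lay less than 40 bases away on both sides. This kept 58.7% of the positions inside runs and 20.4% of those outside. Only 1.81% of the kept positions with a known base were base 1, compared with 21.1% of all. At read-interior positions the change was 10.3 points inside runs (from 2.61% to 12.9%) and 29.6 points outside (from 30.6% to 60.2%). Of the lost positions, 181 inside runs and 54 outside were read-interior. In the class starting at over 20% to 40% inside runs, 57.9% of the 2992 read-interior positions rose and 23.8% fell by at least 20 points, with a median of 69.2% in precursors.

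Depth moved with the levels. Outside runs, positions with 5 to 9 precursor calls had a mean of 31.4% in iPSCs and 61.01% in precursors, and those with 40 to 79 calls had 60.1% and 88.9%. The change was 29.6 and 28.7 points, respectively, and over all 5 depth classes outside it ran from 28.4 to 29.6 points. Inside runs, the change was 11.9 points at 5 to 9 precursor calls, 7.81 points at 20 to 39 calls and 19.3 points at 80 or more calls. The part of depth in the changes inside runs was not tested. With a minimum of 20 calls in both libraries and runs rebuilt from the positions left, the mean changes were 8.15 points inside and 22.9 outside.

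The level moved with distance from the border of a run in both libraries. Outside runs, positions under 200 bp from a run had a mean of 8.70% in iPSCs and 35.6% in precursors, and those 1000 to 2000 bp away 33.5% and 69.4%. The change was 26.9 points in the nearest class, was at its highest at 1000 to 2000 bp, with 35.9 points, and was 22.3 points at 100000 bp or more, where iPSCs already stood at 65.1% and precursors at 87.4%. Inside runs, the change was 13.3 points in the outermost 10 bp, 8.54 points at 100 to 150 bp from the border and 4.25 points at 300 to 500 bp. The 844 positions at 500 bp or more from a border showed 19.4 points, and 436 of them belong to 1 run on chromosome 17. Without it the change there was 5.25 points over 408 positions.

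**Figure D4:**
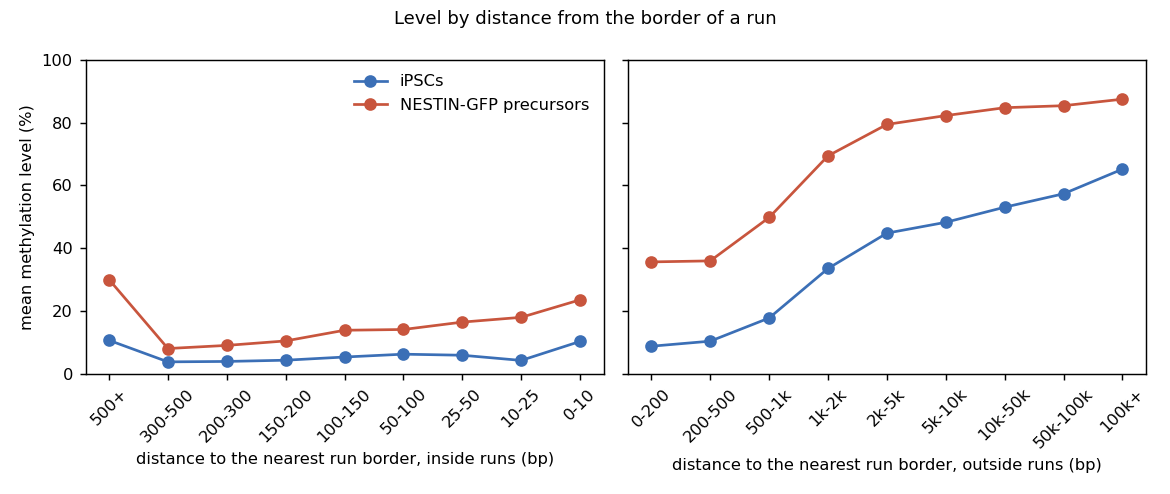
Mean methylation level (y axis, %) in iPSCs (blue) and NESTIN-GFP precursors (red) by distance to the nearest border of a run (x axis, bp), for positions inside runs (left) and outside (right). Both libraries climb with distance outside runs and the gap between them is widest at 1000 to 2000 bp, while inside runs it is narrowest at 300 to 500 bp and wide again in the last class, where 436 of 844 positions belong to 1 run.

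That run holds 599 positions from 39979959 to 39983291 of chromosome 17 in the coordinates of the files, with 1621675 iPSC calls and 620246 precursor calls, 6.69% of all precursor calls inside runs. Its methylation was 14.1% in iPSCs and 41.1% in precursors. The median run had 1761 and 397 calls. Leaving the run out changed the mean inside runs from 9.89 to 9.86 points.

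Along the chromosomes, the rise outside runs was everywhere. In each of the 1525 windows of 1 Mb with at least 50 positions outside runs, mean methylation was higher in precursors. The change ran from 2.73 to 49.7 points with a median of 27.9, and 90% of windows lay between 15.9 and 38.6 points. The levels of windows in iPSCs had a 5th percentile of 29.99% and a 95th of 67.9%, and those in precursors 56.3% and 91.1%.

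Whole runs were then compared by their pooled calls, with the same test, adjustment and thresholds over 15772 runs. The median run was at 4.10% in iPSCs and 8.94% in precursors. In all, 3198 runs gained (20.3% of those tested, 95% interval 19.7% to 20.9%) and 0 lost. Whatever the size of the change, 9277 runs were higher and 2477 lower in precursors at an adjusted p under 0.05 by Fisher's exact test, and the lowest change of any run was -19.8 points. With read-interior positions only, 2680 of 14176 runs gained and 1 lost. The count rests on which runs are admitted, since with a minimum of 10 calls per position 1929 of 12264 runs gained, and among runs of at least 20 positions 658 of 7430.

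Short, sparse runs gained most often. Of runs with 10 to 14 positions 34.7% gained (95% interval 33.5% to 36.01%), compared with 7.19% (6.44% to 8.03%) of runs with 25 to 49 positions and 2.98% (2.21% to 4%) of longer ones. Of runs with the widest spacing, 12.5 bp or more per position, 38.9% gained, compared with 10.9% in the densest class, with less than 6.91 bp per position. The runs with 10 to 14 positions also had fewer precursor calls, with a median of 220 compared with 644 in runs of 25 to 49 positions. Runs that overlap a placed promoter window gained in 10.5% of 4491 cases and other runs in 24.2% of 11281. By starting level, 8.43% of the 10222 runs at 2% to under 5% in iPSCs gained, 29.8% of the 3590 at 5% to under 10%, 84.8% of the 572 at 10% to under 20%, and 89.6% of the 837 at 20% to under 80%. The share on single chromosomes ran from 15.8% on chromosome 16 to 27.1% on chromosome 7.

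The gained runs reached levels at both ends of the scale. In precursors 1217 of the 3198 (38.1%, 95% interval 36.4% to 39.8%) were at 20% to under 40%, 587 at 40% to under 60%, 364 at 60% to under 80% and 1030 (32.2%, 30.6% to 33.8%) at 80% or more. In the other 2 libraries of the series, which are further cell types with 1 library each, these classes had different levels. The runs at 80% or more in precursors had a median of 32.5% in iPSCs, 93.9% in precursors, 89.2% in iPSC-DA neurons and 91.3% in primary mdDA neurons over 1014 runs with at least 5 positions covered in all 4 libraries. The 1201 such runs at 20% to under 40% in precursors had a median of 4.66% in iPSCs, 30.9% in precursors, 32.9% in the iPSC-DA library and 6.06% in that of mdDA neurons. In mdDA neurons 94.4% of the first and 1.58% of the second class were at 20% or more. The 12499 runs that did not gain had medians of 3.81%, 6.00%, 5.88% and 4.63% in the same order of libraries.

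Among runs with at least 20 positions, the 5 largest rises went from low to nearly full methylation. The largest lay on chromosome 6 from 48547355 to 48547644, with 26 positions, 5.87% in iPSCs (95% interval 4.94% to 6.95%, 2113 calls) and 94.9% in precursors (93.0% to 96.3%, 706 calls). Another run on chromosome 6, from 93628372 to 93628754, went from 5.20% to 93.4%. The others were on chromosome 15 from 37209166 (11.2% to 95.9%), chromosome 13 from 96374346 (13.2% to 97.8%) and chromosome 7 from 52632401 (13% to 97.4%). None of these 5 overlaps a placed promoter window, and they were at 73.6% to 97.5% in mdDA neurons. The largest fall among runs of this size, which did not reach 20 points, was on chromosome 17 from 4995583, with 8.76% in iPSCs and 1.42% in precursors. Its read-interior positions were at 3.30% and 0. Coordinates of runs are those of the files, whose positions fit the chromosome lengths of NCBIM37 (mm9), and genes at these runs were not analysed here.

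Promoters could be compared in 5779 placed windows with at least 5 positions, which belong to 5570 genes. The median window was at 4% in iPSCs and 7.14% in precursors. Without base 1, these medians were 0.726% and 6.11%. With the same test and thresholds, 1156 windows gained (20% of those tested) and 1 lost (0.0173%). The windows that gained had a median of 5.65% in iPSCs and 43.7% in precursors, and the others 3.77% and 4.58%. In the iPSC-DA library and in mdDA neurons, the windows that gained had medians of 14.9% and 7.53%, and the others 5.40% and 4.73%. Gains were less frequent in CpG-rich windows, with 46.8% of 312 windows with up to 14 CpGs, 27.1% of 1777 with 15 to 24, 17.5% of 2134 with 25 to 34 and 9.90% of 1556 with 35 or more. The median number of precursor calls in these classes was 127, 142, 208 and 363.5. Windows that gained had a median of 112 precursor calls and the others 244, and 430 of 3716 windows gained when at least 10 positions were required. With the base 1 positions left out, 941 of 5035 windows gained and 1 lost.

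Germline genes stood out among the lists of genes examined. Of 28 genes on the list, 10 had a window that could be tested, and all 10 gained, compared with 20% of all windows. Their median was 14.8% in iPSCs and 92.5% in precursors. The median of all windows in iPSCs was 4%, and runs that started higher gained more often, so that the 20% is not a share at like starting levels. Without base 1, the median in iPSCs was 12.8% for the list and 0.726% for all windows. The list was chosen with earlier results of these data known. Ddx4, an RNA helicase of germ cells whose promoter is printed above, was at 8.38% in iPSCs (95% interval 7.40% to 9.48%, 2721 calls) and 73.3% in precursors (71.0% to 75.5%, 1500 calls). At its 6 base 1 positions the levels were 10.0% to 43.1% in iPSCs and 64.3% to 100% in precursors, and at its other 34 positions the median was 3.32% in iPSCs and 73.2% in precursors, with no precursor value under 34.3%. The highest iPSC value at these 34 positions was 20.97%. Hormad1, a protein of the meiotic chromosome axis, went from 12.1% (10.8% to 13.4%) to 89.95% (88.1% to 91.5%). At its 14 positions beyond base 1 no iPSC value was over 15.4% and no precursor value under 76.25%. Positions of a window are linked by shared reads and are not replicates. How often other windows were separated in this way was not counted.

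The other 8 germline windows also gained, from starting levels of 8.42% to 56.7%. Dmrtb1, a transcription factor of spermatogonia, was at 15.4% in iPSCs and 87.9% in precursors over 23 positions. Slc25a31, the ADP/ATP carrier of testis, was at 15.4% and 93.8%, and Sohlh2, a helix-loop-helix factor of germ cell differentiation, at 8.59% and 91.2%, the largest rise of the list with 82.6 points. Dazl, an RNA-binding protein of germ cells, was at 14.1% and 96.5%, and Mael, of the piRNA pathway, at 8.42% and 90.7%. Sycp1, of the synaptonemal complex, started higher, at 28.5%, and reached 97.1%. Asz1, also of the piRNA pathway, went from 33.0% to 96.6%, and Tex101, a surface protein of male germ cells, from 56.7% to 96.4%. The 9 windows that could be measured in mdDA neurons had a median of 94.7% there.

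Only 4 of 30 pluripotency genes had a window that could be tested, and 0 of 4 gained, a count too small to set against the 20% of all windows. Klf4 was at 3.94% in iPSCs and 0 of 125 calls in precursors (95% interval 0 to 2.98%), Klf2 at 5.93% and 1.29%, and Fgf4 at 4.59% and 9.69%. Sox2 was at 4.08% and 11.1%, the latter from 54 calls (5.19% to 22.2%). These are transcription factor and growth factor genes of pluripotent cells, and Sox2 is also used by neural progenitors. Klf4 and Sox2 were also among the retroviral factors. Without base 1, the levels in iPSCs and precursors were 1.41% and 0 for Klf4 and 0.228% and 0.526% for Klf2. For Fgf4 they were 1.79% and 10.5%, and for Sox2 0 and 10.6%. Of 15 genes of DNA methylation enzymes and their partners, 5 had a window that could be tested and 0 of 5 gained, which is likewise too few to set against that share. Dnmt3a was at 2.61% and 1.43%, Uhrf1 at 4.01% and 1.21%, Tet3, an oxidase of methylated cytosine, at 3.14% and 3.58%, and Dnmt1 at 4.06% and 10.0%.

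Of 13 windows of 12 neural progenitor genes, 6 gained and 0 lost, a small sample beside the 20% gained among all windows. Nes was at 7.58% in iPSCs (95% interval 6.07% to 9.43%, 963 calls) and 68.7% in precursors (63.0% to 73.9%, 275 calls), and at 14.8% in the iPSC-DA library and 4.38% in mdDA neurons. The precursors carry a reporter with regulatory sequence of Nes, and calls from such a copy cannot be told apart from those of the gene. Within the window the precursor levels were uneven, with base 1 positions from 0 to 96.1% and the other 6 positions from 0 to 90.6%. Gli3, a transcription factor of Hedgehog signalling, was at 12.8% and 94.4%, the latter from 54 calls. Notch2, a Notch receptor, was at 5.80% and 48.8%, Vim, an intermediate filament of progenitors, at 3.94% and 25%, and Nr2e1, an orphan receptor of neural stem cells, at 1.29% and 31.8%. The Notch ligands did not gain, with Dll1 at 6.06% and 0 of 44 calls (95% interval up to 8.03%) and Jag1 at 1.75% and 0 of 69 calls (up to 5.27%). Msi2, an RNA-binding protein of progenitors, was at 5.68% and 0.442%. Without base 1, the iPSC levels of these 3 windows were 0.832%, 0 and 1.27%. Nkx6-1, a patterning factor of the neural tube, was at 4.38% and 18.8% and Prom1, a surface protein of stem cells, at 17.3% and 31.2%, and neither was called.

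Pax6, a transcription factor of neural progenitors and eye, had windows at 2 alternative starts that differed. The first printed above was at 15.8% in iPSCs (95% interval 13.05% to 18.9%) and 55.6% in precursors (47.6% to 63.2%, 153 calls). The second, which lies upstream, was at 6.12% in iPSCs and 0.469% in precursors (0.0829% to 2.61%, 213 calls). In the second window, the 2 base 1 positions were at 19.7% and 21.5% in iPSCs, and the other 6 positions had a median of 0.820% in iPSCs and were all at 0 in precursors. The difference between the windows was not tested.

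Of the midbrain and dopaminergic windows, 4 of 10 gained, too small a sample to set against the 20% of all windows. Pitx3 was at 8.11% in iPSCs (95% interval 4.70% to 13.6%, 148 calls) and 55.4% in precursors (43.3% to 66.8%, 65 calls), where the iPSC line carries the GFP allele of this gene and the precursor line does not. Slc6a3, the dopamine transporter, was at 11.0% and 50%, Wnt1, a signal of the midbrain-hindbrain border, at 6.39% and 36.6%, and Lmx1b, a transcription factor of dopaminergic progenitors, at 6.78% and 27.5%. Nr4a2, which is needed to make dopaminergic neurons, was at 2.82% (2.16% to 3.68%) and 2.08% (1.01% to 4.24%) over 29 positions, and the median of its 21 positions at bases 2 to 40 was 0 in both libraries. Pax2 was at 3.36% and 4.11%, Msx1 at 2.96% and 4.75% and En1 at 2.46% and 11.4%, all transcription factors of the early midbrain. The list's median was 3.95% in iPSCs and 13.97% in precursors, compared with 4% and 7.14% over all windows.

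**Figure D5:**
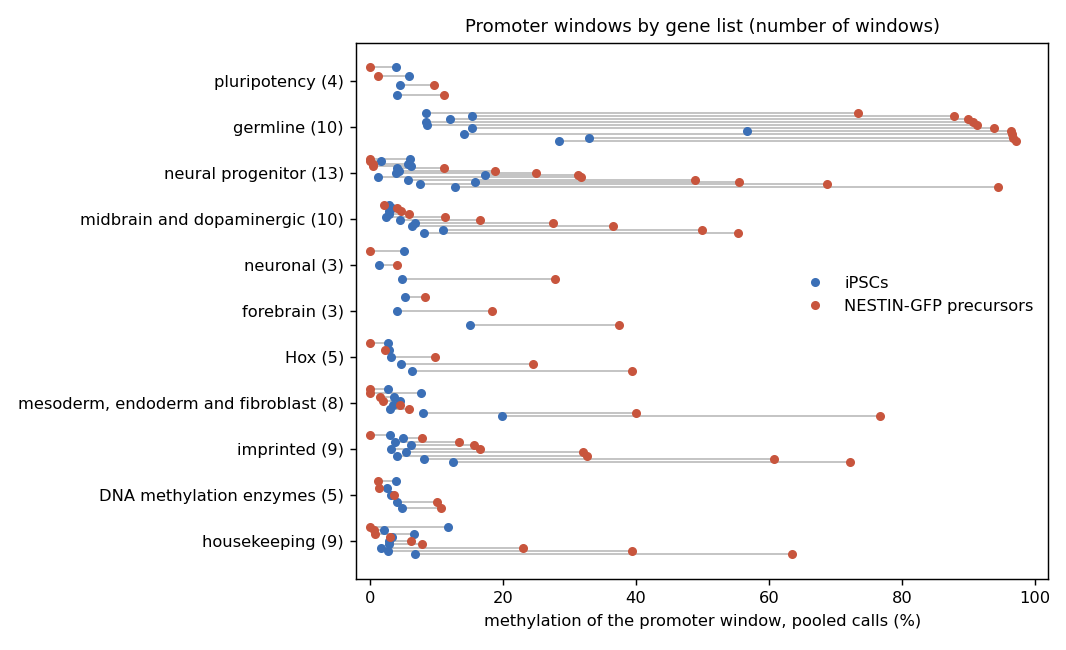
Methylation of promoter windows (x axis, pooled calls, %) in iPSCs (blue) and NESTIN-GFP precursors (red), joined by a line for each window, grouped by gene list (y axis, with the number of windows). All 10 germline windows end at 73.3% or more in precursors, while the windows of pluripotency genes and DNA methylation enzymes stay at or below 11.1%.

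The remaining lists had few windows, and their counts stand beside 20% gained among all windows. Of 9 imprinted genes 4 gained, with Plagl1 at 12.6% and 72.1%, Igf2r at 4.03% and 32.7%, Zim1 at 8.11% and 60.8% and Mcts2 at 5.42% and 32.0%, while Gnas was at 3.05% and 0 of 329 calls (95% interval up to 1.15%). Imprinted genes are expressed from 1 parental allele. In mdDA neurons Plagl1 was at 39.1%, Mcts2 at 54.1% and Zrsr1, which did not gain (6.13% and 15.7%), at 49.7%, and the other 6 windows at 3.03% to 6.91%. Of mesoderm, endoderm and fibroblast genes 2 of 8 gained, with the muscle filament gene Des at 19.8% and 76.7% and the endoderm factor Foxa3 at 8.01% and 40.1%. Gata5, Gata2 and Snai1 were under 6% in both libraries. Hox genes gained in 1 of 5 windows, Hoxd9 at 6.39% and 39.5% (38 precursor calls), while Hoxd1 was at 4.76% and 24.5% and missed the 20 points by a narrow margin. Forebrain genes gained in 1 of 3, Lhx2 at 15.1% and 37.5% (32 precursor calls), and neuronal genes in 1 of 3, the glutamate receptor gene Gria2 at 4.90% and 27.9%.

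Housekeeping genes, which are expressed in all cells, were not free of gains, with 3 of 9. Ppia, coding cyclophilin A, was at 6.79% in iPSCs and 63.4% in precursors (82 calls), Eef2, an elongation factor of translation, at 2.69% and 39.5% (76 calls) and Tbp, the TATA-binding protein, at 1.64% and 23.0% (74 calls). The other 6 were at 0 to 7.85% in precursors. Rps18, a ribosomal protein gene, was at 11.8% in iPSCs and 0 of 151 calls in precursors (95% interval up to 2.48%), and without its base 1 positions at 3.30% in iPSCs. In the iPSC-DA library and in mdDA neurons, Ppia was at 15.8% and 8.64%, Eef2 at 3.45% and 2.33% and Tbp at 1.80% and 1.01%. With 9 windows, the share gained among housekeeping genes, 33.3%, is too small a sample to set against the 20% of all windows. The same holds against the 46.2% of neural progenitor windows. No list other than the germline list had more than 46.2%.

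Over all promoters, the 10 largest rises among windows with at least 10 positions included Hormad1 and Slc25a31 again and Hormad2, a relative of Hormad1 in meiosis, at 6.71% in iPSCs and 85.9% in precursors. Naa11, an acetyltransferase gene, was at 10.6% and 92.2% and its window overlaps that of the transcript 4930467D21Rik (11.8% and 92.9%). Gm46055 was at 12.9% and 89.1%. Tmie, of hair cells of the ear, had the largest rise with 91.9 points, from 2.67% to 94.5% (55 precursor calls), and its window overlaps that of Als2cl on the other strand (4.93% and 89.3%). Prr7 (5.47% and 90%) and Nktr (5.89% and 83.3%) completed the list. In mdDA neurons Naa11 was at 96.4% and Nktr at 7.49%, so that the windows with the largest rises were not of 1 kind in the other libraries. The 1 window that lost was that of the histone gene H4c1, at 25% in iPSCs (95% interval 19% to 32.1%, 164 calls) and 0 of 84 calls in precursors (0 to 4.37%).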

How the data were processed

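RRBS libraries of iPSCs and NESTIN-GFP precursors were compared, and those of iPSC-DA and mdDA neurons gave levels at the same places. Per the labels and the study's methods, the authors ran FastQC on single reads of 40 bases, used Trim Galore 0.3.5 for trimming, and aligned and called them with Bareback and Bismark 0.10.1. The authors deposited counts of methylated and unmethylated calls per cytosine position, unnormalized and per strand, and the percent of methylated calls, which equals methylated over all calls. The build is not named in the sources used here, and positions fit NCBIM37 (mm9), reaching 197192264 on chromosome 1. RefSeq GRCm38.p6 promoter windows were placed where at least 8 listed positions fell on their CpGs and on no other base, with a lead of 4 over the next place, and 8900 windows in RefSeq order were kept.

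Fisher's exact tests (two-sided) were adjusted by Benjamini-Hochberg over all positions, runs or windows, and shares have Wilson 95% intervals. The code, in Python 3.11.15 with numpy 2.4.6, pandas and numba, was tested on simulated data. By rule, the named windows were up to 4 per list with the most precursor calls, those with the largest rise and fall, the 10 largest called rises and falls with at least 10 positions, and the 5 largest run rises and falls with at least 20. Other windows and the runs and windows that fell without being called were named after their values were seen. The members and lists were chosen with earlier results of these data known. Alternatives for depth, strands, thinning, run definitions, thresholds and averaging were tried. The expression data of the study were not analysed here.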

Additional observations from a re-analysis of the deposited data

Results flagged for a closer look

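Calls on the X chromosome were outside the comparison. Over 10409 positions covered by 5 or more calls in both libraries, precursors had more calls there than iPSCs by a log2 shift of 0.48 after subtracting the autosomal median, while single autosomes lay between -0.10 and 0.08. The cause was not tested.

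In the placed promoter windows, the precursor library had 24872 positions with at least 5 calls at bases 41 to 100 from an MspI site, beyond a read of 40 bases, compared with 113 in iPSCs, 198 in the iPSC-DA library and 54 in that of mdDA neurons. These positions had a mean level of 4.90% at bases 41 to 60 and 7.17% at bases 61 to 100, compared with 15.01% at bases 36 to 40 of the same library. Few of them entered the comparison, since iPSCs lacked calls there. The part of read length in the differences between the libraries was not tested.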

How the results depend on the processing

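No paired analysis was possible because each group has 1 library. For the same reason no library could be left out. The direction of the mean change, up in precursors, held under all alternatives inside and outside runs, except that the median change inside runs was 0 (22.2 points outside). The mean change inside runs (9.89 points) and outside (28.9) was 8.27 and 26.2 with a minimum of 10 calls, 8.15 and 22.9 with 20, 14.6 and 30.8 with 1, and 10.4 and 28.7 with strands merged. With iPSC calls thinned by the ratio of the libraries' total calls, which leaves iPSCs deeper at the compared positions, it was 8.87 and 28.0. It was 13.8 and 29.7 with runs of 5 or more positions, 7.05 and 25.6 with at least 20, 7.96 and 27.4 with gaps under 50 bp, and 11.9 inside with gaps under 200 bp. With pooled calls it was 14.9 and 44.8, among read-interior ones 10.3 and 29.6, without the deepest positions 9.85 inside, and without the run with most precursor calls 9.86 inside. The choices of read-interior positions, of leaving out base 1 and of leaving out that run were made after seeing the data.

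Counts depended more on the settings, some of which also change the number tested. Positions that gained numbered 85916 with a minimum of 20 calls and 60917 among read-interior positions, where 212 lost when only these were adjusted together. Fewer positions were tested under both of these settings. Lost positions were 5052 at a threshold of 10 points and 1040 at 30 points. With a minimum of 10 calls, runs that gained (3198 of 15772) were 1929 of 12264. They were 895 of 6350 with 20 calls and 6634 of 21106 with 1. They were 12361 of 33441 with runs of 5 or more positions and 658 of 7430 with at least 20. Of the 15772 runs, 5581 gained at 10 points and 2088 at 30 points. Runs that lost (0) were 4 with a minimum of 1 call, 1 with thinning, 13 with runs of 5 or more positions, 1 with gaps under 50 bp, 2 with gaps under 200 bp, 9 at 10 points and 1 among read-interior positions. Promoter windows that gained (1156 of 5779) were 633 of 4468 with a minimum of 10 calls. They were 430 of 3716 when 10 positions were required. Of the 5779 windows, 1861 gained at 10 points and 753 at 30 points. Those that lost (1) were 11 at 10 points and 0 both at 30 points and when 10 positions were required. When one random part of the iPSC calls set the starting level and the rest gave the change, positions starting at 100% rose by 6.81 points inside runs and 8.48 outside, in place of lower means in precursors. Of 60 such values by starting level under the 3 alternatives tried for them, these 2 reversed. Another 50 moved beyond a 95% interval of the class mean, and 8 did not. That interval came from the spread over the positions of a class. It takes them as independent, although positions are linked by shared reads.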
